A study of Mus musculus with 4 samples.

Results

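The keratins and ductular reaction genes followed here were Krt7, Krt8, Krt18, Krt19, Krt23, Sox9, Epcam, Cd24a and Sprr1a, measured in mouse liver. They were found on the arrays by the gene name of the probe or by the current symbol of its accession, with Epcam written as Tacstd1 in the files. These 9 genes had 13 probes among the 41174 probes and 27669 gene names of the array. All 13 probes passed the background filter, and 8 of the 9 genes were measured on enough arrays to be tested, among 18044 genes tested in all. Epcam was the gene left out, with values on 2 arrays.

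All animals were males of the strain C57BL/6, kept on a high-fat diet. They were injected intraperitoneally with an antisense oligonucleotide (ASO) of 25 mg/kg on 2 occasions per week during 4 weeks. One group received a scrambled control ASO and the other an ASO against Plin2, the gene of the lipid droplet coat protein perilipin 2. Each of 4 two-colour Agilent arrays held the liver RNA of 1 control mouse in red (Cy5) and of 1 mouse labelled Plin2-ASO in green (Cy3), so each group had 4 mice. All mice had the diet and an oligonucleotide, and no mouse on another diet or without injections was measured here. The age of the animals is not given in the sources used here. Whole liver was used, so fewer cells of a type and less RNA per cell cannot be told apart.

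Keratins are filament proteins that assemble from a type I and a type II partner. Hepatocytes make the pair Krt8 and Krt18, while the epithelial cells of bile ducts also make Krt7 and Krt19. A ductular reaction is the expansion of duct-like cells, and of hepatocytes that take on duct markers, in injured or fatty liver. Sox9 is a transcription factor of duct cells, and Epcam and Cd24a are surface proteins of duct and progenitor cells. Krt23 is a type I keratin known to be induced in stressed or injured liver. Sprr1a is a small proline-rich protein best known from the cornified envelope of skin and from stressed or regenerating tissue.

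Values are log2 ratios of the liver labelled Plin2-ASO over the control liver of the same array, after background correction and loess normalization, and levels are normalized log2 signals of 1 channel. The median spot signal lay between 244 and 499 in the livers labelled Plin2-ASO and between 256 and 637 in the control livers, over local backgrounds of 55 to 63.5. The share of probes well above background was 59.9% to 68.3% in green and 64.4% to 70.1% in red. Array 3 stood apart. The mean correlation of its ratios with the remaining arrays, across genes, was 0.33, where arrays 1, 2 and 4 had 0.51 to 0.66. It also had the most spots marked as outliers, 7.61% against 1.5% to 3.83%. The correlation of its ratios with the GC content of the probes was -0.28, against 0.06, 0.08 and 0.26 on arrays 1, 2 and 4. The albumin gene Alb, the defining hepatocyte marker, had a level of 17.52 in the control livers and 15.82 in the livers labelled Plin2-ASO. The targeted gene did not bear out the group labels: the values of Plin2 on arrays 1 to 4 were 0.24, 0.15, 0.83 and 0.36, a mean of 0.40 ± 0.15 (moderated SE, n = 4 arrays), with a 95% interval of 0.03 to 0.76 and a limma adjusted p of 0.156. Directions below therefore speak of the livers labelled Plin2-ASO. No array had its dyes exchanged, so an exchange of dyes or labels would turn the sign of each value, and a dye effect of a single probe and the group cannot be told apart.

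Each probe is a 60-base oligonucleotide, and where it lies bears on the values of Krt7 and Sox9 below. Coordinates of probes are given as deposited, for build mm7 of the mouse genome. The following probes are shown because they gave the values of the 2 duct keratins, of Sox9 and of Epcam. Where the Krt7 and Krt19 probes lie in their transcripts was not determined here. They are set beside the upstream probe of Sox9 and the probe of Epcam, whose genomic spans exceed their own length and so cross a splice junction. All letters are those of the deposited files and no base is marked.
Krt7 upstream probe: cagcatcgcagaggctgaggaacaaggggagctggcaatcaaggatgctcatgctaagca
Krt19 probe: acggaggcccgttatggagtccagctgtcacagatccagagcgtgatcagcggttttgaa
Sox9 upstream probe: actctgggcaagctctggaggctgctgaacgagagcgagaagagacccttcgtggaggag
Epcam probe: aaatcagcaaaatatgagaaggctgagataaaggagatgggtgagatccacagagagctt
The Krt7 probe lies at chr15:101409444-101409503 on the plus strand and the Krt19 probe at chr11:100250117-100250176 on the minus strand. The Sox9 probe spans chr11:112892041-112892893 and the Epcam probe chr17:85952074-85952902, both on the plus strand. The 2 spans are 853 and 829 bases long for probes of 60 bases.

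The stress-linked genes Sprr1a and Krt23 were far lower in the livers labelled Plin2-ASO, and the duct keratin Krt19 was moderately lower. No member was called higher. In limma's fit 3 of the 8 tested members passed an adjusted p of 0.05, all 3 lower, which is 37.5%. Over all tested genes 9.74% passed in either direction, 6.07% as lower and 3.67% as higher. Sprr1a, well above background in 0 of the 4 livers labelled Plin2-ASO, entered this count through its control signal alone. With a filter that asked for both channels on all 4 arrays it dropped out. The members that passed were then 2, Krt19 and Krt23, and 1416 genes passed in all. The number of genes tested with that filter is not given here, so these counts have no share beside them. The median of the members' mean log2 ratios was -0.61, against -0.03 over all tested genes. On arrays 1 to 4 the members' median was -0.54, -0.66, -0.59 and -0.38. Without array 1 or without array 2 only Sprr1a and Krt23 passed, when 1.89% and 2.11% of all genes passed. Without array 3, 5 of 9 members tested then passed, when 32.3% of all genes did, and without array 4 it was 3 members and 5.44% of all genes.

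**Figure D1:**
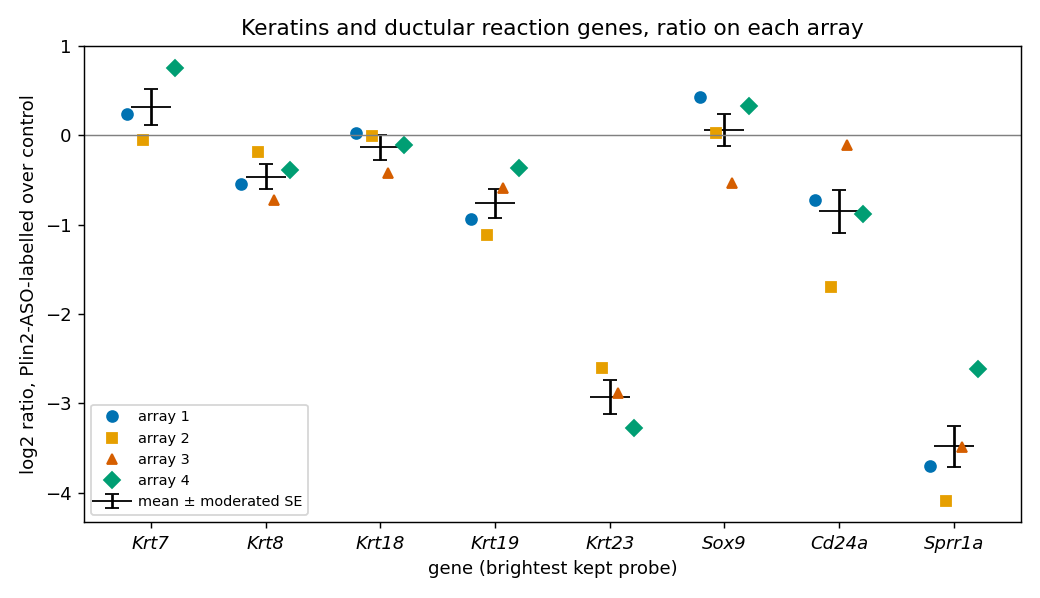
Log2 ratio of livers labelled Plin2-ASO over control livers for the brightest kept probe of each of the 8 tested members. Symbols are the 4 arrays, and bars show the mean and its moderated standard error. Krt23 and Sprr1a lie below -2.6 on every array measured, Krt19, Krt8 and Cd24a lie below 0 on all 4 arrays, and Krt7 and Sox9 lie on both sides of 0.

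Sprr1a had control levels of 10.62, 10.96, 10.66 and 9.48 and levels of 6.92, 6.88, 7.16 and 6.85 in the livers labelled Plin2-ASO on arrays 1 to 4. Every control liver was above every liver labelled Plin2-ASO, with the lowest control level on array 4. The probe was well above background in all 4 control livers but in 0 of the 4 others, so its fold is a bound: Sprr1a was at least 8.97-fold lower (the mean control level against the lowest signals well above background on each array, or the probe's own where higher). Its measured log2 ratios, which rest on that dim green signal, were -3.70, -4.09, -3.49 and -2.62, a mean of -3.48 ± 0.23 (moderated SE, n = 4) with a limma adjusted p of 0.00126.

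Krt23 had control levels of 11.73, 11.77 and 11.15 and levels of 9.12, 8.87 and 7.87 in the livers labelled Plin2-ASO on arrays 2 to 4. The groups did not overlap, and the lowest level of both groups was on array 4. Krt23 was 7.61-fold lower, with log2 ratios of -2.61, -2.89 and -3.28 and a mean of -2.93 ± 0.19 (moderated SE, n = 3, 95% interval -3.38 to -2.48, limma adjusted p 0.00148). Its spot on array 1 was marked as an outlier and dropped. Kept, that spot gave -3.55 and the mean over 4 arrays became -3.08. Sprr1a and Krt23 passed the threshold in every alternative in which they could be fitted, 19 and 18 of them. These alternatives are not independent, and the deposited log ratios and the series table hold the same values. Sprr1a could not be fitted with the strict background filter, because its green signal was too dim. Leaving out array 2, 3 or 4 fitted Krt23 on the 2 arrays that remained.

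The 250 bases before the starts of these 2 genes are shown because they are the members that differed most. The sequences are those of RefSeq for assembly GRCm38.p6, in the direction of transcription, and capitals mark matches to motifs searched by letters. The motifs were the AP-1 site TGANTCA, the C/EBP site TTGCNNAA, a STAT site TTCNNNGAA, a TEAD site GGAATG and an RBPJ site TGGGAA, each on both strands, and the TATA box TATAAA on the coding strand. No match overlapped another.
Sprr1a, chr3:92485882-92486131, minus strand: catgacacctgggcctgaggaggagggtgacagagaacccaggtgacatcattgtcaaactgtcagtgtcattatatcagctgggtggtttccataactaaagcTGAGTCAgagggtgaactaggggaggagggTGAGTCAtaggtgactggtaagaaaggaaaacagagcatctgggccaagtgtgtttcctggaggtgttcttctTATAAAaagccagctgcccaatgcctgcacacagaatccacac
Krt23, chr11:99493121-99493370, minus strand: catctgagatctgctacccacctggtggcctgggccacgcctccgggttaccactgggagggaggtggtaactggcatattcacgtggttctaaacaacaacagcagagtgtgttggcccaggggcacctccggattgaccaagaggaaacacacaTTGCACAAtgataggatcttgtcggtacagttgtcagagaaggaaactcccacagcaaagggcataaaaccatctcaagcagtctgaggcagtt
Sprr1a had 2 AP-1 matches, 146 and 116 bases upstream of the start, and a TATA box match 43 bases upstream. Krt23 had 1 C/EBP match, 94 bases upstream. AP-1 is the dimer of Fos and Jun proteins, and C/EBP factors are abundant in hepatocytes. Of all 32851 promoters of the table, 6.75% held the AP-1 letters, 9.56% the C/EBP letters, 7.02% the STAT letters, 12.6% the TEAD letters, 21.6% the RBPJ letters and 7.59% the TATA box letters. The table matched 6 of the 9 members. Of the other 4, Krt8 had 1 RBPJ match at 134 bases upstream, and Krt7, Krt18 and Epcam had none of these letters in the window. The members without an entry were Krt19, Sox9 and Cd24a. A match describes letters only, and binding was not measured.

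Krt19, the type I keratin used to mark bile ducts, had control levels of 9.51, 9.58, 9.26 and 9.12 and levels of 8.57, 8.46, 8.67 and 8.74 in the livers labelled Plin2-ASO. The groups did not overlap, and the gap was smallest on array 4. Krt19 was 1.69-fold lower, with log2 ratios of -0.94, -1.12, -0.59 and -0.37 and a mean of -0.76 ± 0.16 (moderated SE, n = 4, 95% interval -1.14 to -0.37, limma adjusted p 0.032). The call was lost without array 1 (adjusted p 0.195), without array 2 (0.187) and when arrays were centred on the median instead of loess (0.0569).

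The hepatocyte pair Krt8 and Krt18 did not pass the test. Krt8, the type II partner, had control levels of 15.26, 15.36, 15.50 and 15.39 and levels of 14.72, 15.17, 14.78 and 15.01 in the livers labelled Plin2-ASO. The groups did not overlap, by the margin between 15.17 and 15.26. The log2 ratios of Krt8 were -0.54, -0.19, -0.72 and -0.39, a mean of -0.46 ± 0.14 (moderated SE, n = 4, 95% interval -0.79 to -0.13, limma adjusted p 0.0868). A second Krt8 probe 132 bases further downstream had -0.65, -0.40, -0.72 and -0.55 on arrays 1 to 4. In a fit of every kept probe, in which 9.99% of 25843 probes passed, that second probe had a mean of -0.58 and an adjusted p of 0.0323, so the call of Krt8 depends on the probe. With the mean of both probes as the value of the gene, the adjusted p was 0.0445.

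Krt18, the type I partner of Krt8, had control levels of 14.94, 14.98, 15.19 and 15.10 and levels of 14.98, 14.97, 14.77 and 14.99 in the livers labelled Plin2-ASO. The log2 ratios of Krt18 were 0.03, -0.01, -0.42 and -0.11. Array 3 was the lowest, but with adjustment for probe GC content the values were 0.01, -0.07, -0.08 and -0.29. Its mean was -0.13 ± 0.14 (moderated SE, n = 4), with a 95% interval of -0.45 to 0.20 and a limma adjusted p of 0.602, and the groups overlapped. The ratio of Krt8 was below that of Krt18 on each array, by -0.57, -0.18, -0.31 and -0.28, a mean difference of -0.34 ± 0.17 (SD, n = 4). The exact two-sided sign-flip permutation test gave p = 0.125, the smallest that 4 arrays allow, and 0.208 after Benjamini-Hochberg over 5 differences. Of these differences only the mean of Krt7 and Krt19 minus the mean of Krt8 and Krt18, given below, was planned. The others were added outside the planned design. Krt19 was also below the mean of Krt8 and Krt18 on each array, by -0.46 ± 0.47 (SD, n = 4) with the same exact p of 0.125. Krt19 was below Krt18 alone by -0.63 ± 0.48 (SD, n = 4, exact p = 0.125). Krt23 was below Krt18 by -2.75 ± 0.37 (SD, n = 3), where the exact test cannot go below 0.25. The exact test cannot reach 0.05 with 3 or 4 arrays, and no other test of these differences was made.

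Krt7, the type II duct keratin, gave different values at its 2 probes. These probes are annotated to different transcript records, so position along the gene and transcript cannot be told apart. The brightest, upstream probe had 0.24, -0.05 and 0.76 on arrays 1, 2 and 4 and an outlier spot on array 3, a mean of 0.32 ± 0.20 (moderated SE, n = 3, 95% interval -0.17 to 0.80, limma adjusted p 0.365). Control levels at this probe were 10.81, 10.53 and 10.92 on those arrays, and levels in the livers labelled Plin2-ASO were 11.05, 10.48 and 11.68. The downstream probe had -1.07, -1.13, -0.07 and -0.51, a mean of -0.69 ± 0.20 (moderated SE, n = 4) and an adjusted p of 0.07 in the fit of every probe. The sign of Krt7 was therefore that of the probe taken. The mean of Krt7 and Krt19 minus the mean of Krt8 and Krt18 was -0.09, -0.48 and 0.44 on arrays 1, 2 and 4, a mean of -0.05 ± 0.46 (SD, n = 3, exact p = 0.75, smallest possible 0.25). This difference between duct and hepatocyte keratins was smaller than its spread. It rests on the upstream Krt7 probe and lacks array 3. The mean of all kept probes gave -0.17, outlier spots kept gave 0.02 and median centring gave 0.21.

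**Figure D2:**
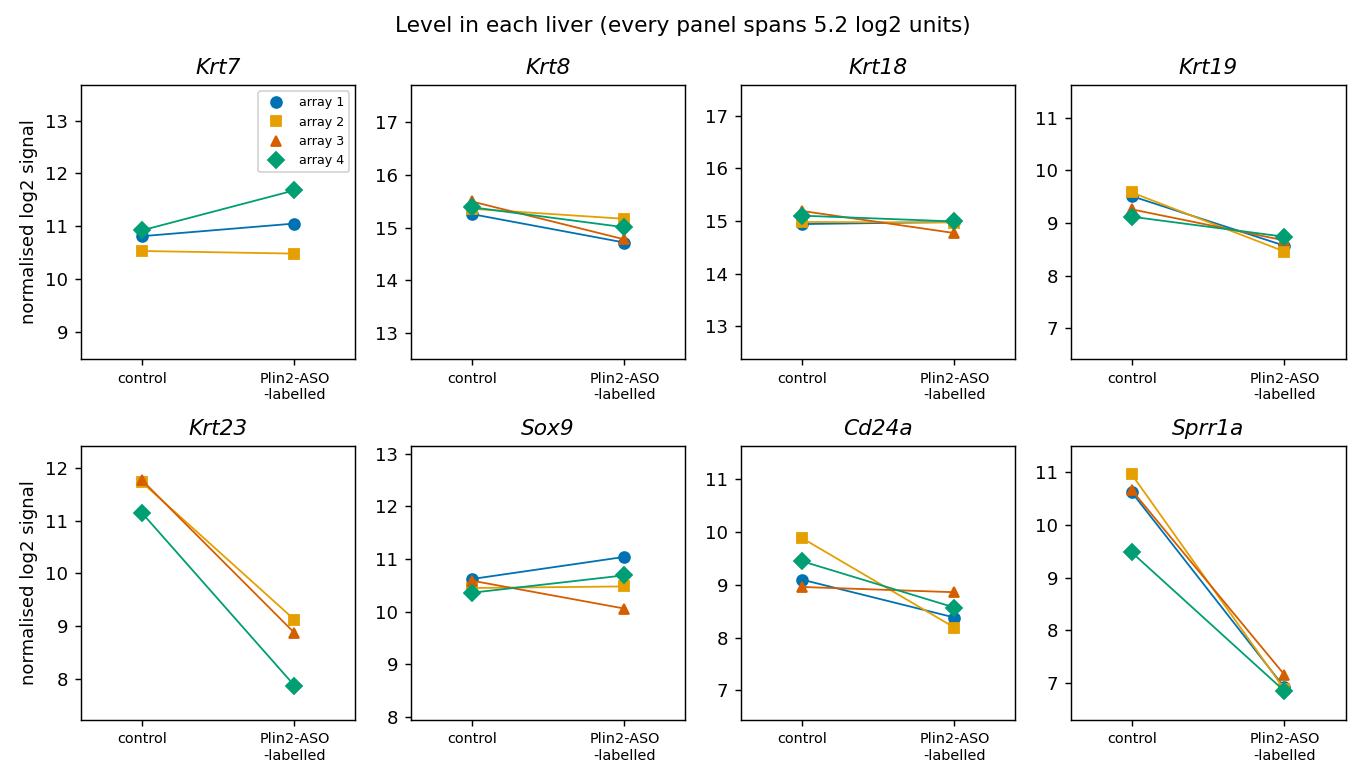
Normalized log2 signal of the brightest kept probe of each tested member in each liver, with a line joining the control liver and the liver labelled Plin2-ASO on the same array. Panels have different ranges of equal height. Levels of Sprr1a, Krt23, Krt19, Krt8 and Cd24a do not overlap between the groups, and those of Krt7, Krt18 and Sox9 do.

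Cd24a, a glycosylated surface protein of duct and progenitor cells, had control levels of 9.10, 9.89, 8.96 and 9.45 and levels of 8.38, 8.19, 8.86 and 8.57 in the livers labelled Plin2-ASO. The groups did not overlap, and array 3 had nearly equal levels. Its log2 ratios were -0.72, -1.70, -0.11 and -0.88, a mean of -0.85 ± 0.24 (moderated SE, n = 4, 95% interval -1.43 to -0.28, limma adjusted p 0.073). Without array 3 the adjusted p was 0.00414, in a fit in which 32.3% of all genes passed. Without arrays 1, 2 and 4 it was 0.236, 0.266 and 0.177, and without array 2 the mean was -0.57. Of the 6 members measured on all 4 arrays, Krt8, Krt19, Cd24a and Sprr1a had every liver labelled Plin2-ASO below every control liver, a pattern shown by 10.7% of the 16076 genes measured on all arrays. Sprr1a is counted here though only its control levels were well above background. The reverse pattern was shown by 0 members and by 5.9% of those genes.

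Sox9, the duct transcription factor, had 3 probes, and its groups overlapped at the brightest one. The brightest, upstream probe had control levels of 10.62, 10.45, 10.59 and 10.36 and levels of 11.04, 10.48, 10.06 and 10.69 in the livers labelled Plin2-ASO. Its log2 ratios were 0.43, 0.03, -0.53 and 0.33, a mean of 0.06 ± 0.18 (moderated SE, n = 4, 95% interval -0.37 to 0.49, limma adjusted p 0.86). Array 3 alone was below 0, but with adjustment for probe GC content the values were 0.36, -0.06, -0.05 and 0.09. The middle probe had -0.13, -0.54, -0.11 and -0.69, a mean of -0.37. The most downstream probe was printed 10 times on each array and had -0.48, -0.71, -0.08 and -1.38, a mean of -0.66. Neither passed in the fit of every probe, with adjusted p of 0.172 and 0.0923. The repeated spots of the downstream probe had an SD of 0.10 to 0.13 within an array, against an SD of 0.54 between the 4 arrays. In green, 4 to 10 of the 10 spots of this probe were well above background on an array, against all 10 in red.

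Epcam, the adhesion protein of duct epithelium, had 0.28 on array 1 and -0.32 on array 2. Its spots on arrays 3 and 4 were marked as outliers, and kept they gave -0.45 and -0.06. The main fit asked for at least 3 arrays and did not test Epcam. The fits without array 3 and without array 4 included it, on the same 2 arrays. Its values on these 2 arrays lay on both sides of 0.

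**Figure D3:**
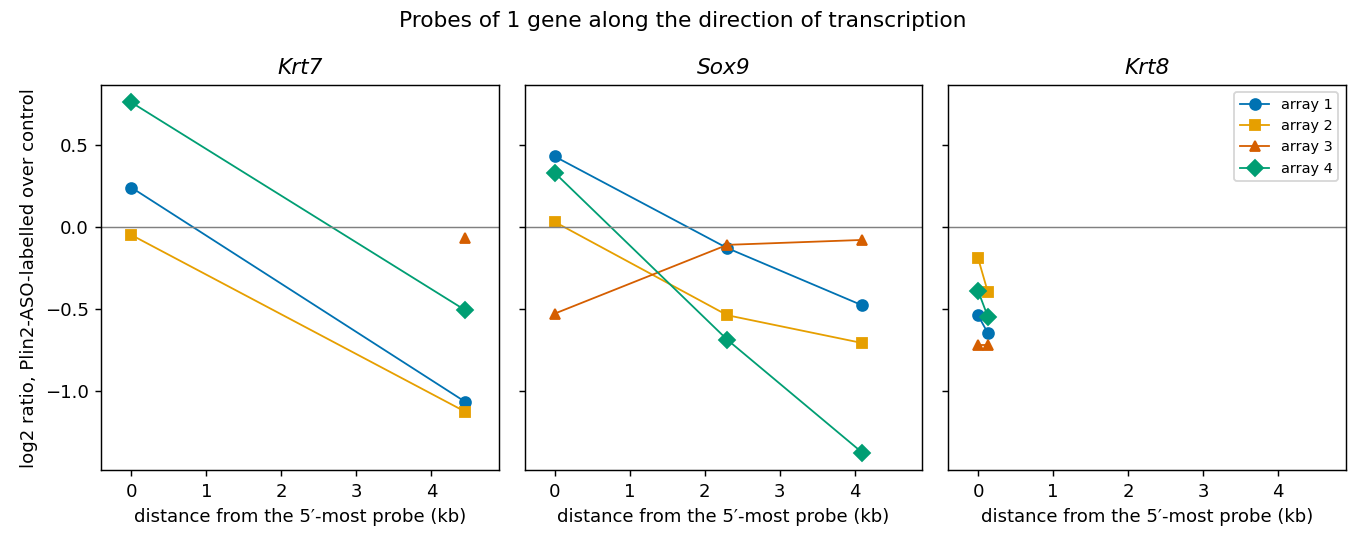
Log2 ratio of each probe of Krt7, Sox9 and Krt8 on each array against its distance from the most upstream probe in kilobases, in the direction of transcription. Downstream probes are lower for Krt7 on arrays 1, 2 and 4 and for Sox9 on those same arrays but, before adjustment for probe GC content, not on array 3, and the 2 probes of Krt8 lie close together.

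Position along the gene moved with the ratio for more than the members. The downstream minus upstream difference was -1.22 for Krt7 (-1.31, -1.08 and -1.26 on arrays 1, 2 and 4, probes 4454 bases apart) and -0.72 for Sox9 (-0.90, -0.74, 0.45 and -1.71). For Krt8, with probes 132 bases apart, it was -0.12. The Krt7 probes are annotated to different transcript records, while those of Sox9 share 1 record and those of Krt8 share 1. Over 5886 genes with at least 2 kept probes on 1 strand, the median difference was -0.14 and the downstream probe was the lower one in 67.8%. The median by array was -0.18, -0.25, 0.19 and -0.28, so array 3 ran the other way. Only 1% of these genes had a lower mean difference than Krt7 and 5.39% a lower one than Sox9. The Krt7 mean lacks array 3, which ran the other way, so its rank is not like for like. Kept, the outlier spot of the upstream Krt7 probe on array 3 had -0.16, against -0.07 at the downstream probe. With the ratios adjusted for the GC content of the probes, the mean differences of Krt7, Sox9 and Krt8 were -1.16, -0.65 and -0.13. The adjusted Sox9 differences were -0.72, -0.54, -0.25 and -1.10 on arrays 1 to 4, so array 3 then had the sign of the others. The adjusted median over all 5886 genes was still 0.12 on array 3, against -0.16, -0.23 and -0.23 on the others. The part of RNA quality or of the amplification in these differences was not tested. The other members had 1 probe each, so no such comparison could be made for Krt18, Krt19, Krt23, Cd24a, Epcam or Sprr1a.

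The members were then set beside 13 lists of related genes and of marker genes of liver and other cells. Other cholangiocyte markers had 7 of 19 tested genes past the threshold, 6 lower and 1 higher, with a median of -0.33. Spp1, the secreted protein osteopontin, had -1.27, -3.22, -1.91 and -2.51 and was 4.67-fold lower (limma adjusted p 0.00662). The tetraspanin Tspan8 was 2.76-fold lower, the tight junction protein Cldn7 1.89-fold lower and the membrane protease St14 1.69-fold lower, with limma adjusted p of 0.00815, 0.0104 and 0.0127. Onecut1, a transcription factor of both hepatocytes and duct cells, was 3.41-fold higher (adjusted p 0.0232). Without array 1 or without array 2 this list had 1 called gene, when 1.89% and 2.11% of all genes passed. Without array 3 it had 10 of 20 tested, when 32.3% of all genes passed. Its summed signal spanned log2 values of 15.66 to 16.33 in the control livers and 15.52 to 15.98 in the livers labelled Plin2-ASO, so the groups overlapped. Whether fewer duct cells played a part in the lower Krt19 was not tested.

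Keratins other than the members and genes of the cornified envelope showed few or no calls. The other keratins were dim, with mean levels of 8.55 to 8.67 in the control livers, against 10.02 to 10.15 over all tested genes. A median near 0 in such dim genes says little about change in them. Of 24 tested keratins 1 passed: Krt79, a keratin of hair follicle and sebaceous gland, was 2.02-fold higher (limma adjusted p 0.0218), and the median of the list was -0.02. Krt79 did not pass without array 1, 2 or 4 (adjusted p 0.13, 0.11 and 0.0619). Without array 3 the list had 4 called genes of 26 tested, 1 lower and 3 higher, when 32.3% of all genes passed. Of 12 tested cornified envelope genes none passed in limma, with 0 at an unadjusted p of 0.05 and a median of 0.07. Sprr1b, the nearest relative of Sprr1a in the list by name, had a mean log2 ratio of 0.07 (limma adjusted p 0.806). Sprr1a thus had a value far from the median of the cornified envelope list, and Krt23 one far from that of the other keratins. The first list also held genes outside the Sprr family, and the second left out the keratins among the members. This is a description of these lists and not a test.

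A list of filament, linker and junction genes had 7 of 19 tested genes past the threshold. Of these 6 were lower and 1 higher, and the median of the list was -0.21. The list was not of keratin partners alone, as Vim, Nes and the lamins are filament proteins apart from keratins. The linkers Dsp, Plec and Jup did not pass (limma adjusted p 0.0768, 0.509 and 0.36). The desmosome protein Pkp1 reached well above background only in control livers, 4 of 4, and was lower by a factor of at least 3.1 (limma adjusted p 0.00126). It entered the count of lower genes through its control signal alone. Vim, the filament protein of mesenchymal cells, was 3.86-fold lower (adjusted p 0.012), Nes 2.17-fold lower and the epithelial adhesion protein Cdh1 2.09-fold lower (0.00794 and 0.0125). Nuclear lamins Lmnb1 and Lmna also passed as lower, by mean log2 ratios of -0.86 and -0.58. Dsg1a, a desmosomal cadherin, was 1.85-fold higher (adjusted p 0.0215). Without array 1 the list had 1 called gene, without array 2 it had 2, and without array 3 it had 10. Over all genes 1.89%, 2.11% and 32.3% passed in these fits.

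Signals that act on duct cells gave mixed values. Of 15 tested injury signals and receptors 2 were lower and 1 higher, with a median of 0.04. Tnfrsf12a, the receptor through which TWEAK acts on progenitor cells, had -1.28, -1.47, -1.55 and -1.20 and was 2.59-fold lower (limma adjusted p 0.00262), and Tgfb1 was 1.87-fold lower (0.0119). Egfr was 3.99-fold higher (adjusted p 0.0161). Without array 1 or array 2 only Tnfrsf12a passed, with adjusted p of 0.101 and 0.0896 for Tgfb1 and 0.0696 and 0.0805 for Egfr. Without array 3 the list had 7 called genes, 3 lower and 4 higher, and without array 4 it had 5. Over all genes 32.3% and 5.44% passed in these fits. Of 16 tested genes of the Notch list 1 passed, Sox4, 1.72-fold lower (adjusted p 0.0131), with a median of -0.31. Sox4 is a transcription factor that the list held beside the Notch ligands, receptors and their partners, none of which passed. Without array 3, 9 genes of this list passed, when 32.3% of all genes did. Without array 1 or array 2 none of them passed, when 1.89% and 2.11% of all genes did. At an unadjusted p of 0.05 there were 2 and 5 genes of the list. Of 20 tested YAP and TEAD genes 1 passed, Nt5e, 4.16-fold lower (adjusted p 0.00171), with a median of 0.00. Nt5e also passed without each array in turn, and the list had 6 called genes without array 3, when 32.3% of all genes passed.

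**Figure D4:**
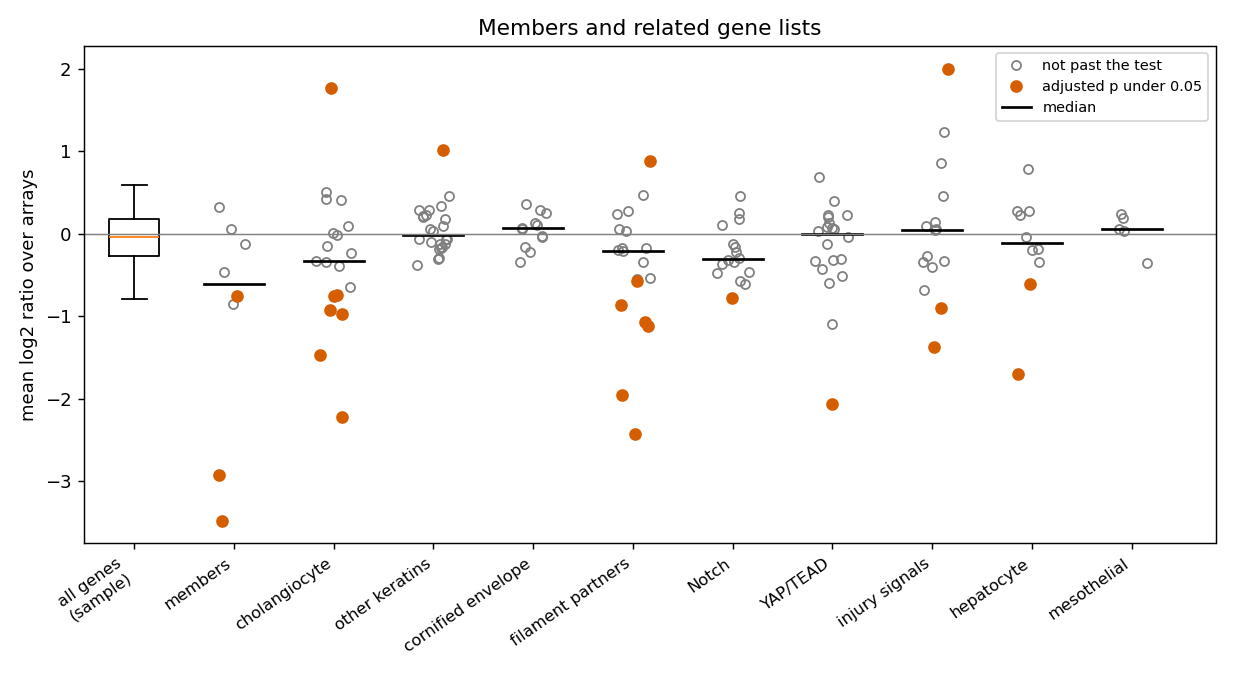
Mean log2 ratio of each tested gene of the members and of 9 related lists, with filled points for a limma adjusted p under 0.05 and a bar at each median. The box at the left shows a random sample of all tested genes with its quartiles, and whiskers at the 5th and 95th percentiles. The medians of the members and of the cholangiocyte, filament partner, Notch and hepatocyte lists are below that of all genes. The other keratins and cornified envelope genes lie around 0.

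Markers of other cells gave these values beside the members. Of 10 hepatocyte markers 2 were lower, Alb by 3.25-fold and Apob by 1.53-fold (limma adjusted p 0.00173 and 0.0306), with a median of -0.12 and summed log2 signals of 19.54 to 19.60 in the control livers and 18.96 to 19.39 in the livers labelled Plin2-ASO. Without array 1, 2 or 4 the hepatocyte list had 1 called gene, and without array 3 it had 5, 3 lower and 2 higher. Over all genes 1.89%, 2.11%, 32.3% and 5.44% passed without arrays 1, 2, 3 and 4, also for the lists that follow. Of 7 neutrophil markers 1 was lower, S100a9 (limma adjusted p 0.0476). No neutrophil marker passed without array 1, 2 or 4, and 3 passed without array 3, 2 lower and 1 higher. Of 4 erythroid markers 2 were higher, Alas2 and Klf1. Without array 1 no erythroid marker passed, and without array 2 only 1 did. None of 5 tested mesothelial markers passed in limma (0 at an unadjusted p of 0.05), and Wt1, Upk1b, Lrrn4, Muc16 and Bnc1 had no probe above the background filter. None of 4 tested pancreas and gut markers passed (1 at an unadjusted p of 0.05), and 8 others of that list, among them the pancreatic Cpa1 and the intestinal Cdx2, had no probe above the filter.

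The genes nearest to the members' median over the 4 arrays were Pcgf1, Cdk20, Cep131, Rab38 and Mcm4, at Euclidean distances of 0.10 to 0.15 log2 units among the genes measured on all 4 arrays. Their mean log2 ratios ran from -0.58 to -0.50 with limma adjusted p of 0.036 to 0.047. Rab38 was not well above background in the livers labelled Plin2-ASO. None of the 5 passed without array 1, without array 2 or without array 4. The likeness is to a median of 8 genes that differ among themselves, from -2.93 for Krt23 to 0.32 for Krt7 besides the bound of Sprr1a.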

How the data were processed

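Liver RNA of 4 control mice and 4 mice labelled Plin2-ASO was compared on 4 arrays of 1 slide, 1 pair of mice per array. Feature Extraction 9.5.1.1 made the spot intensities, per the file headers. Mean signals and median local backgrounds were used as deposited, and the deposited log10 ratios (red over green) and the series table of log2 ratios, which matched them to 6 decimals for all 41174 probes when every spot of a probe was averaged, served as alternatives. RNA was amplified as cDNA before dye coupling, per the labels.

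Background was corrected with normexp (offset 50) and arrays were normalized by loess in limma 3.58.1 under R 4.3.3, with control spots at weight 0 and outlier spots missing. Probes well above background on at least 3 of 4 arrays in 1 channel were kept, 27160 in all, and each gene took its brightest kept probe measured on at least 3 arrays. Fits that left out 1 array let 1 of the remaining values be missing. Log2 ratios were tested against 0 with lmFit and eBayes, two-sided, with Benjamini-Hochberg over 18044 genes at 0.05, where 1096 genes were lower and 662 higher. The model was tested on simulated data. The labels call the arrays biological replicates. No spot was saturated, and precision is limited by having 4 arrays.

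Symbols came from RefSeq's table of GRCm38.p6, used for names only: 22951 probes matched by their accession and 8440 kept the name in the file. Named genes were every member, the 4 smallest p among called genes of each list and genes called against the list's majority, the 5 nearest genes and Plin2. Sprr1b, Lmnb1 and Lmna, and the untested markers, were named after their values were seen. Members and lists were chosen with earlier results of these data known. Alternatives covered background, normalization, filters, probes, weights, channels, thresholds and leaving out each array. A list and some named genes are not reported here.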

Additional observations from a re-analysis of the deposited data

Results flagged for a closer look

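Among 51 sets of 4 array values checked with Dixon's test at 95%, 3 had 1 array far from the other 3, close to the 1 in 20 that chance gives. Apob had a log2 ratio of -0.38 on array 1, against -0.70 to -0.69 on the others. Cep131, 1 of the genes nearest to the members' median, had -0.42 on array 4. The median of the cholangiocyte markers other than the members was -0.11 on array 4, against -0.40 to -0.36 on arrays 1 to 3. No member was among these.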

How the results depend on the processing

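Array number and array quality moved the counts most. Without 1 array the genes past the threshold ran from 344 to 5934 (main count 1758), the members from 2 to 5, the genes of the 13 other lists from 5 to 59 (main count 26) and the members' median from -0.56 to -0.37. Array quality weights gave 6925 genes, 5 members and 66 list genes, and an adjusted p under 0.1 gave 3000 genes and 5 members. The members' median was -0.46 with the strict background filter, which dropped Sprr1a, and -0.46 with outlier spots kept. The strict filter also dropped Pkp1, Nt5e, Tspan8 and Cldn7, and 21 genes of the other lists then passed. Signs turned for Krt7 (-0.24) and Sox9 (-0.32) with the mean of all kept probes, and for Sox9 without array 1 (-0.06) and without array 4 (-0.03), in a range of -0.06 to 0.26 with 1 array left out. No value of either gene passed. Over all alternatives the members gave 137 results on the same side of the threshold, 3 that lost it (Krt19), 11 that gained it and 4 of turned sign. Cd24a passed with median centring (adjusted p 0.0404), with GC adjustment (0.0497) and with array weights (0.000816), and Krt8 with array weights (0.0263). Fitting the channels separately with the array as a replicate block used only genes measured on all 4 arrays, which left out Krt7 and Krt23. It gave 2131 genes, 39 list genes and an adjusted p of 0.0216 for Cd24a, and the same channels without the block gave 1753, 30 and 0.0299. Signal over background limited Sprr1a to a bound on its fold.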
